A study of Mus musculus with 50 samples.

Results

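The genes described here encode actin and the proteins that handle it in the cell: the cytoplasmic actins Actb and Actg1, the beta-thymosins Tmsb4x and Tmsb10, profilin 1 (Pfn1), cofilin 1 (Cfl1), the Arp2/3 subunits Arpc2 and Arpc3, transgelin 2 (Tagln2) and the myosin light chain Myl6. They were taken by name, and all 10 had a row among the 11879 gene rows of the expression table. Their levels were set beside those of Runx1, the transcription factor that drives endothelial cells towards blood and that was induced in these cells, and of Coro1a, the coronin of blood cells, which binds actin filaments.

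The 50 columns of the table are single mouse cells, all of them hemogenic endothelial cells induced in vitro (iRunx1-iHECs). The cells came from an embryonic stem cell line of the C57BL/6 strain with a doxycycline-inducible Runx1 cassette in the Rosa26 locus, were all exposed to doxycycline, and were gated for CD31+, CD41low, CD45−, c-kit+ and CD201high when sorted. With 1 line, 1 treatment and no uninduced or unedited cells, there was 1 group and nothing to compare it with, so all values below are descriptions over cells and none carries a test. The cell titles end in a pair of numbers, such as 4-6. The first runs from 1 to 4 and was shared by 11, 14, 13 and 12 cells, and since its meaning was not given, relations were also computed within each and without each. The cassette and the gene's own locus share coding sequence, so the Runx1 value can hold both and they cannot be told apart.

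Values are in TPM, a unit that corrects reads for transcript length and is scaled to the same total in each cell, so levels can be compared between genes. The number of reads per cell is unknown, and cDNA was amplified with no molecular identifiers named. Between 2400 and 8615 genes were above 1 TPM in a cell, with a median of 6224, and cell 4-6 stood apart with 2400 against 4326 in the next lowest cell. All 10 listed endothelial markers were above 1 TPM in at least 25 cells, 7 of them in every cell. Of 10 listed blood markers 3 reached this level in at least 25 cells, and Ptprc, which encodes CD45, was listed at 0 in all.

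Actin exists in the cell as single subunits and as filaments. Profilin carries subunits to growing ends, beta-thymosins hold subunits in reserve, cofilin severs filaments, and the Arp2/3 complex starts new branches on existing ones. Transgelin 2 binds along filaments, and myosin II, of which Myl6 is a light chain, pulls on them. Endothelial cells that turn into blood cells round up and leave the vessel wall, a change of shape that uses this machinery.

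The beta-thymosins and the actins are pairs of near relatives, and their sequences show how far reads of one can be told from the other. The coding sequences of Tmsb4x and Tmsb10 are both 135 bases long and carry the same base at 95 positions, an identity of 70.4%. They are shown whole because the 2 genes had rho values of opposite sign with Runx1 over the 50 cells, with the 40 differing bases in capitals, from the GENCODE M21 transcripts:
Tmsb4x: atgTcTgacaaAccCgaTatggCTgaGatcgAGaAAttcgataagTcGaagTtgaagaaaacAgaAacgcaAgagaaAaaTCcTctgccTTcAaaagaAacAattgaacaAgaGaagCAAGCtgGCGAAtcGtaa
Tmsb10: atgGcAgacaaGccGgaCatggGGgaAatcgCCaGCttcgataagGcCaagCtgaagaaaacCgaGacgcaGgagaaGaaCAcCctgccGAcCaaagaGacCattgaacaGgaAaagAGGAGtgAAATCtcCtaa
No stretch of 50 bases was shared between these 2 transcripts.

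The actins are closer. The coding sequences of Actb and Actg1 are both 1128 bases long and carry the same base at 1000 positions, an identity of 88.7%. The first 60 bases are shown because the small difference between the 2 proteins lies at this end, with the 9 differing bases in capitals:
Actb: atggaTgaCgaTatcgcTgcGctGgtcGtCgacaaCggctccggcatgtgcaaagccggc
Actg1: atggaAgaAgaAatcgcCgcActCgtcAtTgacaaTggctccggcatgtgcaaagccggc
Of the 1871 windows of 50 bases in the Actb transcript, 30 also occurred in an Actg1 transcript. Other annotated transcripts, pseudogenes included, held 14.2% of the Actb windows, 56.7% of the Actg1 windows, 53.2% of the Myl6 windows, 43.5% of the Tmsb10 windows and 9.11% of the Cfl1 windows. The share was 0.781% for Tagln2 and 0.216% for Arpc2, and no window of Tmsb4x, Pfn1 or Arpc3 was shared. How reads from shared stretches were divided between genes is not given in the sources used here, so the levels of Actg1, Myl6 and Tmsb10 carry that uncertainty.

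The genes lie apart in the genome. On GRCm38, Actb is at chr5:142903115-142906754, Actg1 at chr11:120345690-120348542, Tmsb4x at chrX:167207093-167209315 and Tmsb10 at chr6:72957347-72958748. Pfn1 is at chr11:70651850-70654644, Cfl1 at chr19:5490455-5495201, Arpc2 at chr1:74236084-74268209, Arpc3 at chr5:122391878-122414184, Tagln2 at chr1:172500047-172507380 and Myl6 at chr10:128490860-128494145. All are annotated as protein coding, and 3 pairs share a chromosome: Actb and Arpc3, Actg1 and Pfn1, and Arpc2 and Tagln2.

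All 10 genes were above 1 TPM in every one of the 50 cells, while 7.15% of all rows were. In 8 of them every cell was above 100 TPM, and only 2 of the 500 values were below it. Both belonged to cell 4-6, the cell with the fewest genes, where Arpc2 stood at 4.44 TPM and Tagln2 at 19.8 TPM. The 10 genes together made up a median of 3.21% of a cell's transcripts, or 32099 TPM, from 19635.5 TPM in cell 1-14 to 59436.5 TPM in cell 4-2.

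**Figure D1:**
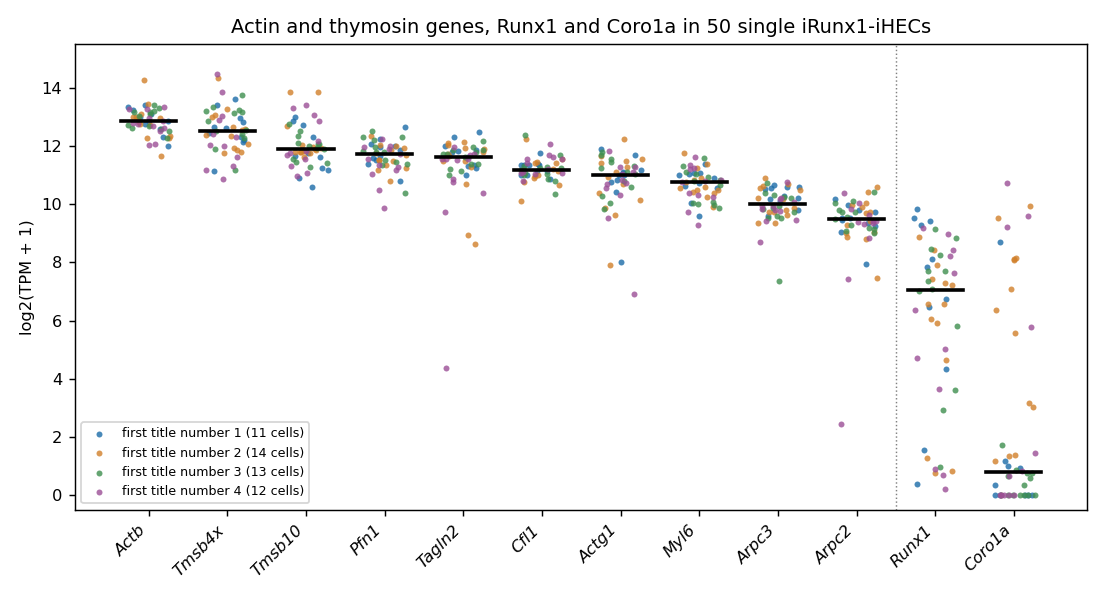
Level of each gene in each of the 50 cells as log2(TPM + 1), 1 point per cell, coloured by the first number of the cell's title, with the median as a black bar. The 10 actin and thymosin genes form tight columns with a few low cells for Actg1, Tagln2, Arpc3 and Arpc2, while Runx1 and Coro1a, right of the dotted line, spread from near 0 to 913 and 1690 TPM.

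Actb was the most abundant of the 10, with 3203 TPM in its lowest cell, a median of 7393 TPM and 19709 TPM in its highest. Only 2 of the 11879 rows had a higher median. Its second highest cell had 11029 TPM, so the top value, in cell 2-17, stood well apart. Actg1 had 119 TPM in its lowest cell, a median of 2070 TPM and 4881 TPM in its highest, again cell 2-17. The lowest cells of Actg1, 4-1, 2-12 and 1-14, had 119, 238 and 256 TPM. The middle of its range was wide as well, with lower and upper quartiles of 1399 and 2519 TPM. Among the 10, only Tmsb4x had a larger ratio of upper to lower quartile.

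The thymosins came next and varied most of the 10 relative to their mean. Tmsb4x ranged from 1874 TPM in cell 4-13 through a median of 5848 TPM to 22513 TPM in cell 4-2. Tmsb10 ranged from 1538 TPM in cell 1-14 through a median of 3757 TPM to 14751 TPM in cell 2-12. The coefficient of variation over cells was 0.608 for Tmsb4x and 0.615 for Tmsb10, against 0.341 for Actb. Cell 2-15 was high in both, with 20523 TPM of Tmsb4x and 14722 TPM of Tmsb10. Cell 2-12 was high in Tmsb10 alone, with 3699 TPM of Tmsb4x.

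Profilin and cofilin had narrow ranges. Pfn1 ranged from 926 TPM in cell 4-6 through a median of 3349 TPM to 6395 TPM in cell 1-1. Cfl1 ranged from 1107 TPM in cell 2-12 through a median of 2332 TPM to 5249 TPM in cell 3-13. The SD of Cfl1 over cells was 0.41 on the log2(TPM + 1) scale, lower than in all but 1.97% of the 304 rows with a median of 500 TPM or more. The SD of Actb was 0.46 on that scale, lower than in all but 6.91% of these rows.

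Tagln2 ranged from 19.8 TPM in cell 4-6 through a median of 3127 TPM to 5662 TPM in cell 1-2. Its lower quartile was 2441 TPM, and cells 2-12 and 2-15 had 399 and 492 TPM. Myl6 ranged from 615 TPM in cell 4-6 through a median of 1730 TPM to 3465 TPM in cell 2-16. The Arp2/3 subunits were the lowest of the 10. Arpc3 ranged from 162 TPM in cell 3-13 through a median of 1032 TPM to 1899 TPM in cell 2-15. Arpc2 ranged from 4.44 TPM in cell 4-6 through a median of 714 TPM to 1525 TPM in cell 2-16.

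Taken over the 304 rows with a median of 500 TPM or more, the median coefficient of variation was 0.471, and 7 of the 10 genes were below it. The median SD on the log2(TPM + 1) scale was 0.71, and 5 of the 10 were below it. On that scale Tagln2 and Arpc2 had the largest values of the 10, 1.24 and 1.18, in both of which cell 4-6 was far below the other cells.

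The order by median was Actb, Tmsb4x, Tmsb10, Pfn1, Tagln2, Cfl1, Actg1, Myl6, Arpc3 and Arpc2. The ranges between the quartiles overlapped in all 9 neighbouring pairs. Within single cells the lower end of the order was the most regular: Myl6 exceeded Arpc3 in 44 of 50 cells (88.0%, exact 95% binomial interval 75.7% to 95.5%) and Arpc3 exceeded Arpc2 in 45 (90.0%, 78.2% to 96.7%). Tmsb4x exceeded Tmsb10 in 37 cells (74.0%, 59.7% to 85.4%) and Tagln2 exceeded Cfl1 in 33 (66.0%, 51.2% to 78.8%). Pfn1 exceeded Tagln2 in 26 cells (52.0%, 37.4% to 66.3%), so neither gene was regularly the higher. Actb against Tmsb4x, Tmsb10 against Pfn1, Cfl1 against Actg1 and Actg1 against Myl6 held in 28 to 31 cells, with intervals that included 50%. These intervals cover counting error over cells only.

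Ratios between the paired genes do not depend on the other rows of a cell. Actg1 made up a median of 20.8% of the Actb and Actg1 sum, from 1.18% in cell 4-1 to 37.3% in cell 3-14, and it never exceeded Actb. Tmsb10 made up a median of 38.04% of the thymosin sum, from 20.5% in cell 4-7 to 84.3% in cell 4-13, and it exceeded Tmsb4x in 13 cells. The thymosin sum was 1.135 times the actin sum at the median, from 0.43 times in cell 2-17 to 5.87 times in cell 2-15, and exceeded it in 33 cells. Cell 2-12 followed at 5.36 times, and it was also the lowest cell for Actb.

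**Figure D2:**
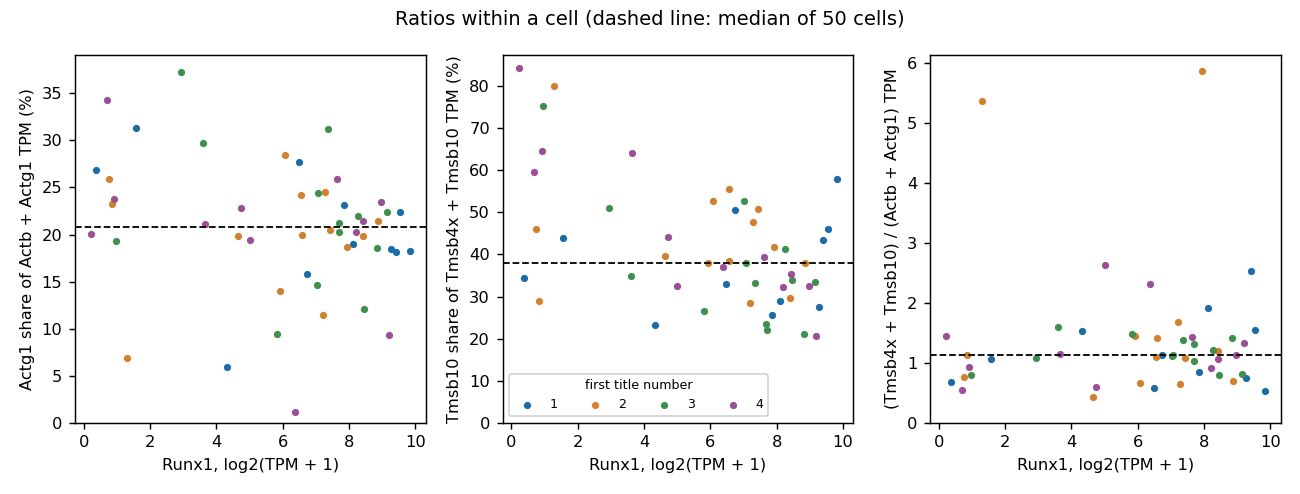
Actg1 share of the actin sum, Tmsb10 share of the thymosin sum (both in percent of TPM) and thymosin over actin ratio in each of the 50 cells, against Runx1 as log2(TPM + 1), with the median as a dashed line and colours for the first title number. The Actg1 share stayed between 1.18% and 37.3%, the 2 highest Tmsb10 shares, 80.0% and 84.3%, were in cells with Runx1 at 1.46 and 0.163 TPM, and 2 cells had more than 5 times as much thymosin as actin.

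Co-expression was measured as Spearman's rho over the 50 cells. The cells share unknown depths and TPM values that sum to a constant, so rho is a description with no p. Over the 45 pairs of the 10 genes the median rho was 0.18, with 36 pairs (80.0%) above 0, 8 (17.8%) at 0.3 or more and 0 at −0.3 or less. Over the 46056 pairs of rows with a median of 500 TPM or more the median was 0.01, with 52.1% above 0, 11.4% at 0.3 or more and 7.20% at −0.3 or less. The sign was positive within all 4 first title numbers for 11 of the 45 pairs (24.4%) and for 13.6% of the 46056. Without the cells of first title number 1 the median over the 45 pairs was 0.11.

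The rho of Actb, like that of Myl6, was above 0 with all 9 partners. It was at 0.3 or more with 5 of them for Actb and with 2 for Myl6, with medians of 0.32 and 0.21. With Actg1 the rho of Actb was 0.53, positive within each first title number (0.19 to 0.89). Pearson's r of that pair on the log2(TPM + 1) scale was 0.47, and 0.31 without the 2 cells farthest from the median of Actb. With Myl6 it was 0.50 (0.45 to 0.73 within first title numbers), and with Cfl1 it was 0.37 (0.35 to 0.55). With Pfn1 and Tmsb4x it was 0.32 in both cases. Without first title number 4 these came to 0.23 and 0.17, without the 7 cells of few genes to 0.33 and 0.27, and without number 2 the rho of Actb with Pfn1 was 0.29.

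The Arp2/3 subunits Arpc2 and Arpc3, which belong to the same complex, had a rho of 0.45, between 0.30 and 0.70 within first title numbers. Their r on the log2(TPM + 1) scale was 0.32, and 0.29 without the 2 farthest cells. Tmsb4x and Pfn1 had a rho of 0.31, which was 0.16 without first title number 4, 0.27 without number 1 and 0.19 without the 7 cells of few genes. Arpc3 and Myl6 also had a rho of 0.31, but it ran from −0.22 to 0.69 within first title numbers, and was 0.24 and 0.21 without numbers 3 and 4 and 0.22 without the 7 cells. The thymosins themselves were only weakly related, with a rho of 0.17 between Tmsb4x and Tmsb10 and values from −0.30 to 0.63 within first title numbers. The lowest pair was Tmsb4x with Arpc2 at −0.20, followed by Tmsb10 with Tagln2 at −0.19. Both changed sign between first title numbers, from −0.70 to 0.58 and from −0.86 to 0.39. The first was −0.51 without number 2, and the second was −0.36 without number 1, −0.32 without number 3 and 0.06 without number 4, so that the count of 0 pairs at −0.3 or less holds for all cells together. Arpc2 and Tagln2 had an r of 0.77 on the log2(TPM + 1) scale but a rho of 0.23. The r was 0.24 without the 2 cells farthest from the median of Arpc2, so the larger value rests on those cells.

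**Figure D3:**
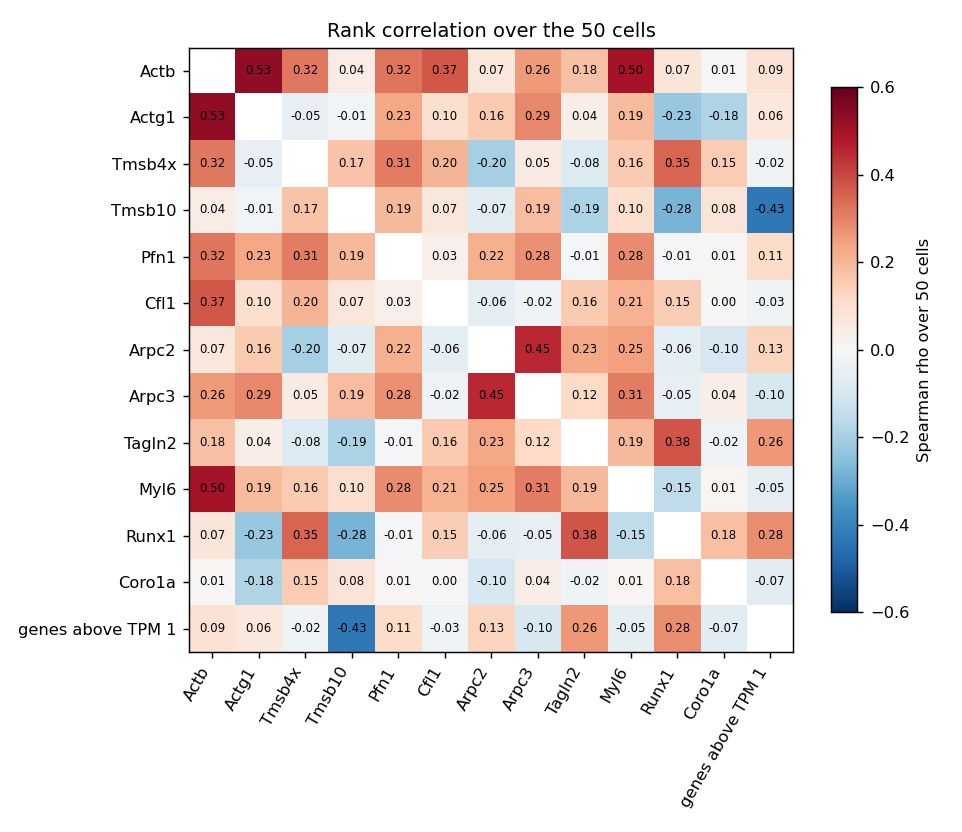
Spearman's rho over the 50 cells between the 10 genes, Runx1, Coro1a and the number of genes above 1 TPM, with red for positive and blue for negative values and the value in each square. The darkest squares among the 10 genes are Actb with Actg1 (0.53), Actb with Myl6 (0.50) and Arpc2 with Arpc3 (0.45), and the darkest blue square is Tmsb10 with the number of genes (−0.43).

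Runx1 itself was above 1 TPM in 43 of the 50 cells (86.0%, exact 95% binomial interval 73.3% to 94.2%) and above 100 TPM in 27. It ranged from 0.163 TPM in cell 4-13 through a median of 132 TPM to 913 TPM in cell 1-2. Its rho with the number of genes above 1 TPM was 0.28, from −0.21 to 0.65 within first title numbers and from 0.10 to 0.40 with each left out in turn. The rho given that number (partial rho) is given beside the larger values below.

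As a set, the 10 genes had no shared direction with Runx1. Their median rho was −0.03, with 4 above 0, against a median of 0.07 over the 6323 rows above 1 TPM in at least 25 cells. Of the 10, 2 had a rho of 0.3 or more, where 6.41% of those rows did, and 0 had a rho of −0.3 or less, where 1.17% did. Given the number of genes, 2 of the 10 were at 0.3 or more, where 3.62% of the rows were, and 0 at −0.3 or less, where 2.23% were.

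Tagln2 and Tmsb4x were the 2 genes. The rho of Tagln2 with Runx1 was 0.38, higher than that of 97.9% of the rows, and 0.33 given the number of genes. It was 0.27, 0.66, −0.14 and 0.66 within first title numbers 1 to 4, and 0.25 without number 4. The rho of Tmsb4x was 0.35, higher than that of 97.0% of the rows, and 0.37 given the number of genes. It was positive within each first title number, from 0.22 to 0.69, and at least 0.31 with any of them left out. Both values depended on the cells with few genes: without the 7 cells of fewer than 5000 genes the rho was 0.24 for Tagln2 and 0.22 for Tmsb4x. In the 43 cells left, 0 of the 10 genes were at 0.3 or more, where 4.6% of the rows were, and 1 was at −0.3 or less, Tmsb10 at −0.33, where 2.37% were. Pearson's r of Tmsb4x with Runx1 on the log2(TPM + 1) scale was 0.41, and 0.37 without the 2 cells farthest from the median of Runx1. The summed TPM of the blood list, which includes Coro1a, ranged from 14.0 to 7422 TPM and had a rho of 0.23 with Runx1. Its rho was 0.28 with Tmsb4x, 0.29 with Cfl1, −0.21 with both Arpc2 and Myl6, and between −0.10 and 0.03 with the other 6 genes. The part of blood markers in these relations was not tested.

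Tmsb10 was the gene lowest with Runx1, with a rho of −0.28, lower than that of all but 1.64% of the rows. The rho of Tmsb10 with the number of genes was −0.43, and its rho with Runx1 given that number was −0.19. It was 0.30, −0.07, −0.69 and −0.62 within first title numbers 1 to 4. Without number 4 it was −0.11 and without number 1 it was −0.50. The Tmsb10 share of the thymosin sum had a rho of −0.39 with Runx1, and −0.35 given the number of genes. Within first title numbers it ran from −0.87 in number 4 to 0.34 in number 1, and it was −0.58 without number 1 and −0.19 without number 4. Thus the direction of Tmsb10 against Runx1 was not the same in all 4 sets of cells.

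Actg1 was negative with Runx1 within every first title number, from −0.45 to −0.04, with a rho of −0.23 overall and −0.25 given the number of genes. Its share of the actin sum was also negative in each (−0.37 to −0.13), with a rho of −0.27 overall and −0.31 given the number of genes. Without the 7 cells of few genes these 2 were −0.17 for the level and −0.16 for the share. On the log2(TPM + 1) scale Pearson's r of Actg1 with Runx1 was only −0.07. Myl6 was negative in each as well, with a rho of −0.15, and −0.07 without number 4. Cfl1 had a rho of 0.15, Actb of 0.07, Pfn1 of −0.01, Arpc3 of −0.05 and Arpc2 of −0.06, all with both signs among first title numbers. The mitotic marker list, which ranged from 19.6 to 10542 TPM, had a rho of 0.37 with Cfl1 and 0.34 with Runx1, and its part was not tested.

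**Figure D4:**
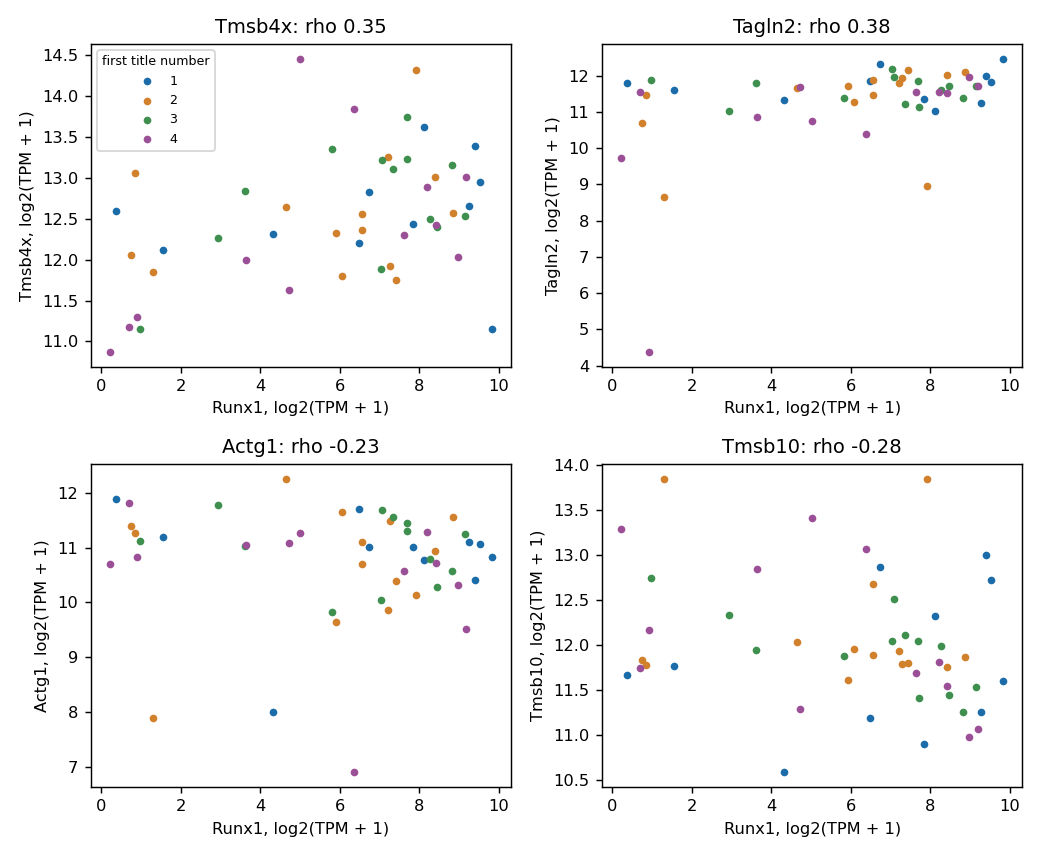
Tmsb4x, Tagln2, Actg1 and Tmsb10 against Runx1 in each of the 50 cells, both axes as log2(TPM + 1), coloured by first title number. The rank correlation is 0.35 and 0.38 in the upper panels and −0.23 and −0.28 in the lower ones, and all 4 panels show wide scatter at any Runx1 level.

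The promoters of these genes were searched for letters tied to known regulators, in the RefSeq windows of 250 bases before and 50 after a start, on GRCm38.p6 and on both strands. Entries matched 9 of the 10 genes, all but Actb, with 12 windows. The core TGTGGT that RUNX proteins recognize was in 2 of the genes, Tmsb4x and Tmsb10, at 1 of the 3 Tmsb10 starts. It was in 16.8% of all 32851 windows and in at least 1 window of 18.9% of all 27025 genes. The CArG box, the element that serum response factor binds in many actin genes, was in 2, Actg1 and Myl6, at 1 of the 2 Myl6 starts, and in 1.63% of all windows and 1.81% of all genes. The TATAAA box was in 0 of the 12 windows and in 13.6% of all windows. The 250 bases before the start are shown for both thymosins and for Actg1, with CArG boxes and the RUNX core (ACCACA on the other strand) in capitals. All 3 lie on the minus strand, at chrX:167209219-167209468 for Tmsb4x, chr6:72958749-72958998 for the first Tmsb10 start and chr11:120348496-120348745 for Actg1:
Tmsb4x: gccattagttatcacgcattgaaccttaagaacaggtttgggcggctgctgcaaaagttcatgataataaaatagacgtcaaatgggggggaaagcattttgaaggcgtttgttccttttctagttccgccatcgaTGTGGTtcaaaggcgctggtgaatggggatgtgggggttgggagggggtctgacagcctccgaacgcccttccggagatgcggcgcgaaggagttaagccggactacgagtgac
Tmsb10: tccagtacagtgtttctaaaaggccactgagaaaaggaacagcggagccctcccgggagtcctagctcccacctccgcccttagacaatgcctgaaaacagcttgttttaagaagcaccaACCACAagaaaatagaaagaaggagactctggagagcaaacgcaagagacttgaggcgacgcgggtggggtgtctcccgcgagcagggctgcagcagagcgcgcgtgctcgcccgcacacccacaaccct
Actg1: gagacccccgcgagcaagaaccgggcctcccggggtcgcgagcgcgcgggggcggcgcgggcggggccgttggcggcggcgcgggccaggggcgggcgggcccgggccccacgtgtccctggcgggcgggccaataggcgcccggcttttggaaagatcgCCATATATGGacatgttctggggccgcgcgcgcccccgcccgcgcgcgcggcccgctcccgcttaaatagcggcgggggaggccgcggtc
A match of letters is a description and does not show that a factor binds there.

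Coro1a was a different kind of gene from the 10. It was above 1 TPM in 21 of the 50 cells (42%, exact 95% binomial interval 28.2% to 56.8%), listed at 0 in 18 and above 100 TPM in 10. Its median was 0.748 TPM and its highest level 1690 TPM, in cell 4-3. Its rho with Runx1 was 0.18, between 0.26 and 0.37 within first title numbers, 0.32 without number 2, and −0.11 within the 21 cells.

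None of the 10 genes reached a rho of 0.3 in size with Coro1a, where 2.97% of 6324 rows were at 0.3 or more and 3.27% at −0.3 or less. The values ran from −0.18 for Actg1 to 0.15 for Tmsb4x, with 7 above 0 and a median of 0.01. Tmsb4x itself ran from −0.37 to 0.63 within first title numbers. Within the 21 cells with Coro1a above 1 TPM the median over the 10 genes was 0.12, with Pfn1 at 0.42, Tmsb4x at 0.36 and Tagln2 at −0.41 as the extremes. The 21 cells were taken after the values were seen and give no firmer ground.

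The surrounding pathway was described with a list of 112 genes of actin control, of which 99 had a row. Of these 74 were above 1 TPM in at least 25 cells, as were 53.2% of all rows, 33 were so in every cell, and 3 (Acta2, Actc1 and Myl9, genes of muscle cells) in none. Of the 10 listed smooth muscle and mesenchymal markers, Cnn1, Myh11, Col1a1 and Dcn had no row and could not be seen. The 6 with a row summed to between 0 and 26.2 TPM in a cell. Of these 0 were above 1 TPM in at least 25 cells, and Pdgfrb and Col3a1 were listed at 0 throughout.

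All 9 rows of the Arp2/3 complex were above 1 TPM in at least 25 cells and 7 in every cell. Arpc1b, a further subunit, had a median of 951 TPM, between Arpc3 and Arpc2. Tropomyosin 4 (Tpm4), which coats filaments, had a median of 997 TPM. Arhgdib, which holds small GTPases in the cytosol, had 999.5 TPM. The calponin Cnn3 had 747 TPM, the capping subunit Capzb 508 TPM and Myl12a, a regulatory light chain of myosin II, 478 TPM. Moesin (Msn), which ties filaments to the membrane, had 395 TPM, the cofilin relative Dstn 266 TPM, the coronin Coro1b 240 TPM and the monomer binder Twf2 134 TPM. The activators were far lower, with the Arp2/3 activator Cttn at 46.8 TPM and the formin Fmnl3 at 20.3 TPM, and the transcription cofactor Mkl2 had 19.6 TPM. Acta1, skeletal actin, was listed at a median of 0.

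**Figure D5:**
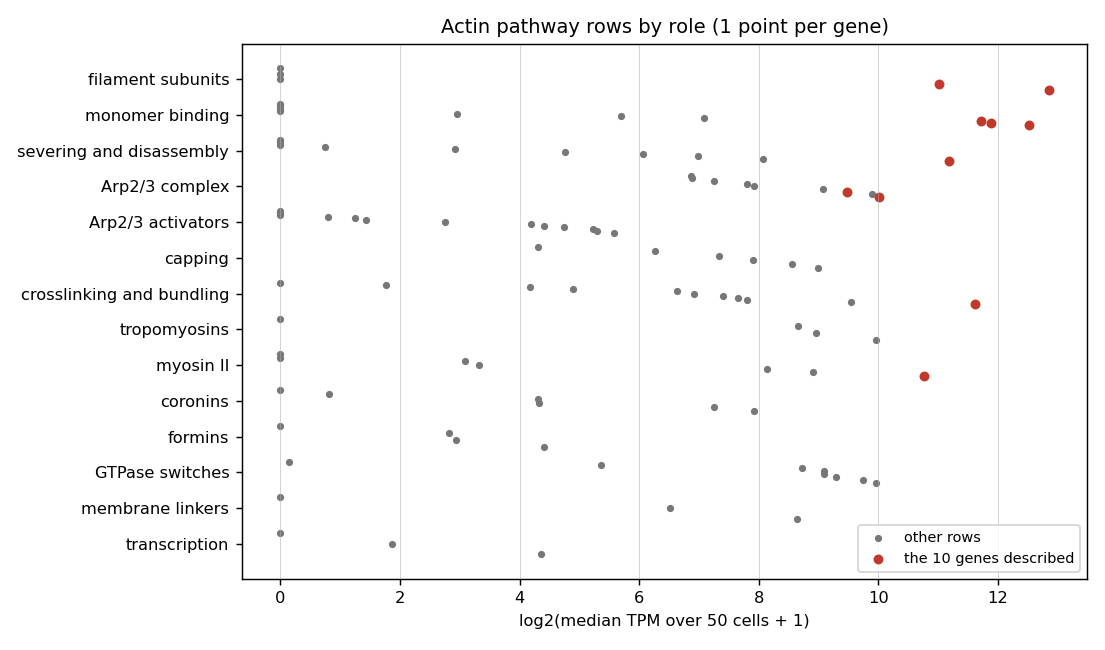
Median level over the 50 cells of each row of the actin list, as log2(median TPM + 1), grouped by role, with the 10 genes described in red and the other 89 rows in grey. In the filament, monomer binding, severing, bundling and myosin roles the red points lie to the right of all grey ones. In the Arp2/3 role Arpc3 is the highest point, just right of Arpc1b, and Arpc2 lies among the other subunits.

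Of the 64 other pathway rows above 1 TPM in at least 25 cells, 1 had a rho of 0.3 or more with Runx1, where 6.41% of all rows did, and 2 of −0.3 or less, where 1.17% did, with a median of −0.03. Actr3, one of the actin-like subunits of the Arp2/3 complex, had a rho of 0.46 with Runx1, and 0.39 given the number of genes. Its rho with the number of genes was 0.49, and it was −0.03 within first title number 2 and between 0.49 and 0.54 in the others. Its actin-like partner Actr2 had a rho of −0.20, which was −0.34 without number 1, and Arpc2 and Arpc3, of the same complex, had values near 0. Myh10, a heavy chain of non-muscle myosin II with a median of 7.49 TPM, had a rho of −0.42 with Runx1, and −0.52 given the number of genes. It was negative within each first title number (−0.79 to −0.10), and −0.28 without number 2. Radixin (Rdx), a membrane linker related to moesin, had a rho of −0.36, and −0.44 given the number of genes. Without number 1 its rho was −0.15.

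With Coro1a, 3 of the 64 rows had a rho of 0.3 or more (Msn at 0.35, Rhob at 0.34 and Fmnl2 at 0.31), where 2.97% of all rows did, and 2 had one of −0.3 or less (Actr3 and Capza1, both at −0.31), where 3.27% did. These few rows are near the share over all rows. Msn was positive within each first title number, from 0.13 to 0.67, with 0.26 without number 4 and 0.25 without the 7 cells of few genes. Actr3 was negative in each, from −0.33 to −0.08, with −0.26 without number 2. Rhob was 0.27 without number 4, Fmnl2 0.16 without number 2 and Capza1 −0.18 without number 4. Actr2, radixin, Rhob, Fmnl2 and Capza1 were named after their values were seen. Msn was named by rule for its level, but its relation with Coro1a was picked out after the values were seen.

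To see which genes were most like the 10, the mean of their log2(TPM + 1) values in a cell was set against 3407 other rows above 1 TPM in at least 40 cells. Over these rows the median rho was 0.04 and the middle 90% lay between −0.24 and 0.32. Of the 64 other pathway rows 14 (21.9%) had a rho of 0.3 or more with this mean, with a median of 0.17, against 4.83% and a median of 0.03 over the 6314 rows above 1 TPM in at least 25 cells. Among the 10 highest rows were Cotl1, a coactosin that binds filaments (0.68), Myl12a (0.55), the calponin Cnn2 (0.52) and Tpm4 (0.51). Also among them were Kcne3, a potassium channel subunit (0.68), Cmtm8 (0.64), Ywhah, an adaptor for phosphorylated proteins (0.55), Gpihbp1, which anchors lipoprotein lipase on capillary endothelium (0.52), and S100a11, a calcium-binding protein (0.51). All those named but Tpm4 were positive within each first title number. Tpm4 ran from −0.01 to 0.86. The 5 lowest rows were Mrpl42, of the mitochondrial ribosome (−0.52), Nit2 (−0.48), Rps7, of the cytosolic ribosome (−0.47), Glrx5, of iron-sulfur cluster assembly (−0.44), and Psmd6, of the proteasome (−0.43). All 5 were negative within each first title number. The highest and lowest rows were chosen over the same cells, so their values are extreme by choice. Like signs within parts of these cells follow in part from that choice.

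The row most like each single gene was chosen as the highest of these 3407 rows and the other 9 genes, so its value is high by choice. For Actb and for Cfl1 it was the same gene, Cnn2, at 0.62 and 0.48. For Actg1 it was Tpm4 at 0.62, between 0.47 and 0.81 within first title numbers. For Tmsb4x it was Btf3 at 0.47, with both signs among first title numbers, and for Tmsb10 it was Ogt, which adds N-acetylglucosamine to proteins, at 0.57. For Pfn1 it was Cyba, a subunit of the superoxide-producing NADPH oxidase, at 0.51. For Arpc2 it was Ppib, a prolyl isomerase of the endoplasmic reticulum, at 0.55, and for Arpc3 it was S100a11 at 0.57. For Tagln2 it was the aminopeptidase Dnpep at 0.57 and for Myl6 it was Cggbp1 at 0.64.

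The endothelial marker list, which ranged from 611 to 7537 TPM in sum, had a rho of 0.32 with Actb and 0.34 with Actg1, and between −0.07 and 0.16 with the other 8 genes. Its rho with the mean of the 10 genes was 0.19. The smooth muscle and mesenchymal list, near 0 throughout, had a rho of 0.43 with Arpc2 and 0.30 with Arpc3, in cells with a sum of at most 26.2 TPM. Their part in the levels was not tested.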

How the data were processed

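Single cells were sorted by the study, and their polyadenylated RNA was amplified with the Discover-sc WTA Kit V2 and made into libraries with the TruePrep kit. Per the labels' processing notes, reads were handled with bcl2fastq, HISAT2 2.1.0, SAMtools 0.1.19 and StringTie 1.3.4 on mm10. The annotation and the choice of rows are not given in the sources used here. The series text and the methods name different sequencers. The deposited values are TPM, which the authors took from StringTie. They are not counts, so the depth per cell is unknown and no count test was run.

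From these values, levels, SDs and Spearman's rho were computed in Python 3.11.15 (numpy 2.4.6, scipy 1.17.1, pandas 2.3.3), with a pseudocount of 1 on the log2 scale. The rho code was tested on simulated data. Rows above 1 TPM in at least 25 cells were the background for relations with Runx1 and Coro1a, and a rho of 0.3 in size was the mark for counting. Named genes were the 10, Runx1, Coro1a, the highest other row of each pathway role, pathway rows at 0.4 or more in size, the 10 highest and 5 lowest rows by rho with the mean of the 10, and each gene's nearest row. Of the rows so chosen, 1 is not reported here. Marker lists were given as counts and sums. Of the 5 pluripotency markers none had a row, and they were not analysed here. The genes and lists were chosen with earlier results of these data known. Sequences came from GENCODE M21 and, for promoters, RefSeq.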

Additional observations from a re-analysis of the deposited data

How the results depend on the processing

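No paired analysis was possible because all cells form 1 group. With no replicates, a value was called moved when it shifted by more than its SD over the 4 first title numbers, or, for a count, by more than 1.5 times. Of 79 values of the 10 main results under the alternatives, 74 did not move by that mark and 5 did. Rescaling the cells without ribosomal protein rows raised the summed TPM of the 10 genes from 32099 to 37994. This rise was fixed in advance, since the rows left are scaled up to fill the total. The median rho with Runx1, −0.03, was 0.11 as Pearson's r on the log2(TPM + 1) scale and 0.12 on the log2(TPM + 0.1) scale, so its sign depends on the measure. The median rho with Coro1a, 0.01, was 0.12 in the cells with Coro1a above 1 TPM, an alternative chosen after seeing the data. Leaving out each first title number in turn gave 0.11 to 0.19 for the median rho among the 10 genes. It gave −0.07 to 0.03 for their median with Runx1 and −0.05 to 0.06 with Coro1a. Dropping the 7 cells that had under 5000 genes moved none of the main results by that mark, which is wide for rho, but took the rho with Runx1 of Tmsb4x from 0.35 to 0.22 and of Tagln2 from 0.38 to 0.24, so that 0 of the 10 genes were at 0.3 or more. Of 220 values for single genes, 12 moved, and 10 of the 12 were the median levels of the 10 genes under the rescaling, which raises every remaining level. Of the 160 values of rho for single genes, 25 had the other sign than the value reported, 0 of them for Tmsb4x or Tagln2 with Runx1. At a threshold of 5 or 10 TPM, 9 of the 10 genes were above it in every cell. The order by median was unchanged in the alternatives run for it, which were added after the data were seen. Depth is unknown, and 50 cells from 1 line limit the precision of every rho.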
